A study of Callithrix jacchus with 4 samples.

Results

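The interleukin-1 system was followed here as 7 genes, picked by symbol from a table of 35108: the ligands IL1A, IL1B and IL18, the signalling receptor IL1R1 with its partner IL1RAP, the decoy receptor IL1R2 and the receptor antagonist IL1RN. All 7 were in the table. The set was put together with earlier results of these data known, including the levels in the transgenic libraries, so the members' values between the groups are given as a description.

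The RNA came from the frontal cortex of adult Callithrix jacchus, the common marmoset, a small primate of the New World. The wild-type group had 2 libraries and the group carrying an APP transgene had 2. The series' title describes the transgenes as mutant forms of the amyloid precursor protein driven by the human EF1α promoter, a promoter active in most cell types. The labels give female sex for both transgenic libraries and none for the wild type, and they do not state in words that each library came from its own animal. Should they not, the spread between them may be technical. All values rest on RNA of whole tissue.

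Interleukin-1 is an early alarm signal of innate immunity. IL1A and IL1B both bind IL1R1, which recruits IL1RAP and signals through MYD88 and IRAK kinases to the transcription factor NF-κB. IL1B and IL18 are made as inactive precursors and are cut by the inflammasome, a complex built on sensors such as NLRP3. The pathway is held back by IL1RN, which occupies IL1R1 without signalling, and by IL1R2, which binds ligand but lacks the intracellular domain needed to signal. In the brain, microglia are a main source of IL1B, and IL1R1 is found on blood vessel endothelium.

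Total counts ranged from 12657323 to 18932180 per library, and transgenic library 2 was the deepest. That library stood apart from its partner: the chi-square per degree of freedom over genes was 37.6 between the transgenic libraries and 10.3 between the wild-type libraries. Counts of the Y-linked gene KDM5D were 2 and 243 in the wild-type libraries and 0 in both transgenic libraries, so sex and genotype are confounded in part. Neuronal markers were present as the tissue label says, with SNAP25 at 3672 to 4316 CPM (counts scaled to library size) and SYT1 at 2037 to 3651 CPM. For APP, the gene of the transgene, the adjusted p was 0.80 in edgeR's quasi-likelihood test, and wild-type and transgenic libraries overlapped.

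IL1A, IL1B and IL1R2 were abundant in transgenic library 2 and near the detection limit in the other 3 libraries. Set against the higher wild-type library, or against 3 counts where that library had fewer, 3 of the 7 members exceeded 4-fold in transgenic library 2. Over all 20216 genes with at least 10 counts in total, 1.2% did so. In transgenic library 1, 0 of the 7 exceeded 4-fold, against 0.119% of all genes. At 2-fold the counts were 5 of 7 in transgenic library 2 (4.14% of all genes) and 0 of 7 in transgenic library 1 (1.59% of all genes). In order of that fold in transgenic library 2, IL1R2 stood at place 5 of the 20216 genes, IL1B at 17 and IL1A at 35. IL1A and IL1R2 reached 10 counts in total only through transgenic library 2, where they are high. Their folds and places carry no weight beside the shares of all genes. In tissue RNA, more cells of a type and more RNA per cell cannot be told apart.

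**Figure D1:**
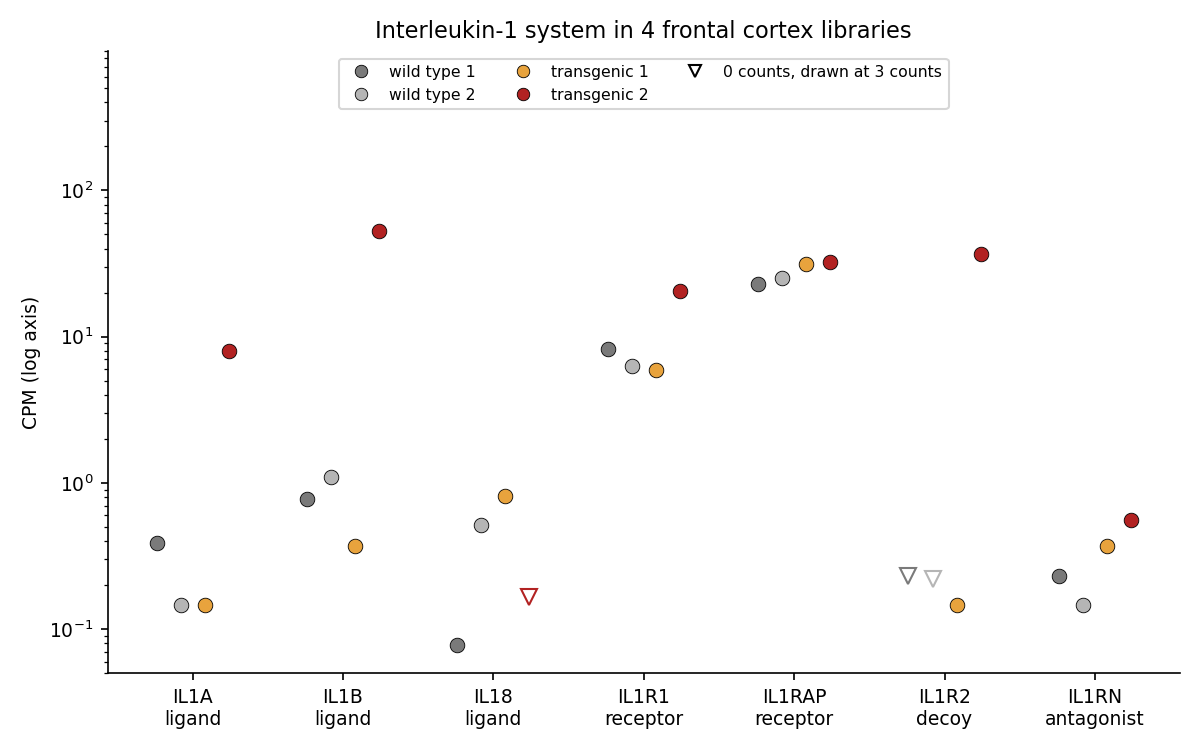
Level of each member (CPM, log axis) in the 4 libraries. Filled circles are measured values and open triangles mark libraries with 0 counts, drawn at the CPM of 3 counts. IL1A, IL1B, IL1R1 and IL1R2 separate transgenic library 2 from the other 3 libraries, while IL1RAP is higher in both transgenic libraries by a small margin.

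Of the ligands, IL1B reached the most counts. There were 10 and 15 counts in the wild-type pair, 5 in transgenic library 1 and 955 in transgenic library 2, or 0.77, 1.10, 0.37 and 52.9 CPM. Transgenic library 1 was thus the lowest of the 4 and transgenic library 2 the highest, and the groups overlapped. Against the pooled wild-type libraries the ratio was 56.3 in transgenic library 2 (exact 95% Poisson interval 37.9 to 87.4) and 0.39 in transgenic library 1 (0.12 to 1.04). Such intervals cover counting error only. The fitted log2 fold change over both transgenic libraries was 4.82 ± 1.94 (SE, n = 2 per group), and it turned to -1.33 without transgenic library 2. In limma-voom it was 2.58.

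IL1A, the ligand that is active without inflammasome cleavage, followed the same pattern at lower counts. It had 5 and 2 counts in wild type, 2 in transgenic library 1 and 144 in transgenic library 2, the last equal to 7.97 CPM. The ratio of transgenic library 2 to the pooled wild type was 30.3 (14.3 to 76.7). Within transgenic library 2, IL1A made up 13.1% of the IL1A and IL1B counts (144 of 1099; exact Clopper-Pearson interval 11.2% to 15.2%). In the other libraries the share rested on 7 to 17 counts and ranged from 11.8% to 33.3%. In the RefSeq annotation of calJac240_pri, possibly a different assembly from that used for counting, IL1B and IL1A were neighbouring protein-coding genes.

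IL18, the member that signals through its own receptor and is best known for inducing interferon-γ, did not share this pattern. It had 1 and 7 counts in wild type, 11 in transgenic library 1 and 0 in transgenic library 2. A count of 0 there allows up to 0.17 CPM, the level of 3 counts. Wild-type library 1 was also under 3 counts, and no fold between libraries at or under that level is given. Transgenic library 2 was the deepest library and the one with no IL18 count.

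Among the receptors, IL1R1 had 107 and 86 counts in wild type, 81 in transgenic library 1 and 370 in transgenic library 2, or 8.28, 6.29, 5.95 and 20.5 CPM. Transgenic library 1 lay just under the wild type and transgenic library 2 above it. The ratio to the pooled wild type was 2.82 (2.37 to 3.38) in transgenic library 2 and 0.82 (0.62 to 1.07) in transgenic library 1. The fitted log2 fold change was 0.87 ± 0.59 (SE, n = 2 per group) with all libraries and -0.29 without transgenic library 2.

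Among the members that passed the filter on low counts, IL1RAP had like values in both transgenic libraries. IL1RAP is the accessory chain shared by IL1R1 and the receptors for IL-33 and IL-36. It had 296 and 342 counts in wild type and 424 and 585 in the transgenic libraries, or 22.9 and 25.0 CPM against 31.2 and 32.4 CPM. Both transgenic libraries lay above both wild-type libraries, as they did for 19.5% of all genes tested. The means were 24.0 ± 1.49 CPM (SD, n = 2) in wild type and 31.8 ± 0.87 CPM in the transgenic pair, and the fit gave 1.33-fold (log2 0.41 ± 0.16 SE). Leaving out transgenic library 2 gave a log2 fold change of 0.38, and leaving out transgenic library 1 gave 0.43. Over the members, both transgenic libraries lay above both wild-type libraries in 3 of 7, beside 18.6% of genes with at least 10 counts. These were IL1RAP, IL1R2 and IL1RN. In transgenic library 1, IL1R2 had 2 counts, against 0 in both wild-type libraries, and IL1RN had 5, against 3 and 2. Differences under 3 counts were not detectable, and IL1R2 reached 10 counts in total only through transgenic library 2. IL1R2 and IL1RN therefore carry no weight beside that share.

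The decoy receptor gene IL1R2 had 0 counts in both wild-type libraries, 2 in transgenic library 1 and 660 in transgenic library 2. At 36.5 CPM, transgenic library 2 was at least 157-fold higher than a wild-type library with 3 counts. Its ratio to transgenic library 1 was 249, with a counting interval of 68.6 to 2057. IL1R2 and IL1R1 are neighbouring protein-coding genes in the same assembly, and their balance differed between libraries. IL1R2 made up 64.1% of the counts on both genes in transgenic library 2 (660 of 1030; 61.1% to 67.0%), 2.41% in transgenic library 1 (2 of 83; 0.29% to 8.43%), and 0 of 107 and 0 of 86 counts in the wild-type libraries, with upper limits of 3.39% and 4.20%. The share depends on transcript length as well as on abundance, so it is set side by side only between libraries.

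IL1RN, the antagonist, had 10 counts or fewer in every library. It had 3 and 2 counts in wild type, 5 in transgenic library 1 and 10 in transgenic library 2. The ratio to the pooled wild type was 2.95 (0.92 to 10.98) in transgenic library 2 and 1.95 (0.45 to 8.49) in transgenic library 1, and both intervals include 1. Of the counts on IL1A, IL1B and IL1RN together, IL1RN took 3 of 18 and 2 of 19 in the wild-type libraries, 5 of 12 in transgenic library 1 and 10 of 1109 in transgenic library 2. As shares these were 16.7% (3.58% to 41.4%), 10.5% (1.30% to 33.1%), 41.7% (15.2% to 72.3%) and 0.90% (0.43% to 1.65%). The interval of transgenic library 2 lay under that of wild-type library 1 and of transgenic library 1, and overlapped that of wild-type library 2.

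**Figure D2:**
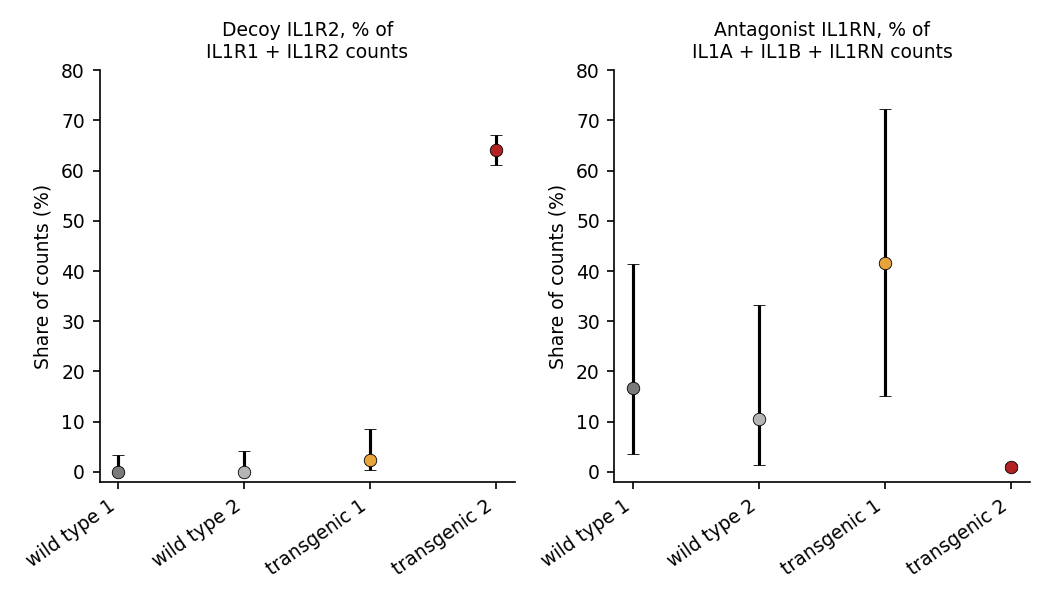
Share of counts (%) taken by the decoy receptor among IL1R1 and IL1R2 (left) and by the antagonist among IL1A, IL1B and IL1RN (right), per library, with exact 95% binomial intervals as bars. The decoy share is 64.1% in transgenic library 2 and at most 2.41% elsewhere, and the antagonist share is 0.90% in transgenic library 2 and at least 10.5% elsewhere.

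In the test of transgenic against wild-type cortex over 16385 genes, 3 of the 7 members passed the filter on low counts (IL1B, IL1R1 and IL1RAP), and IL1A, IL1R2, IL1RN and IL18 did not. None of the 3 was called by edgeR's quasi-likelihood test at an adjusted p of 0.05, where 0% of all genes were. At an unadjusted p under 0.05 there was 1 member, IL1RAP, and 921 of all genes (5.62%). DESeq2 called 0 of the 3 (0.293% of all genes) and limma-voom 0 (0% of all genes). Without transgenic library 1, when transgenic library 2 alone is set against the wild type, 4 of the 5 members then tested were called as higher (IL1A, IL1B, IL1R1 and IL1R2), beside 9.92% of all genes. IL1A and IL1R2 passed the filter in that fit only through transgenic library 2, where they are high, so their calls carry no weight. The log2 fold changes of IL1B and IL1R1 were 5.80 and 1.49 in that fit. Its spread came from the wild-type pair alone, so it describes the members in transgenic library 2 and not the genotype. Without transgenic library 2, 0 of 4 were called, beside 0.0175% of all genes. With no filter on low counts all 7 were tested and 0 were called.

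**Figure D3:**
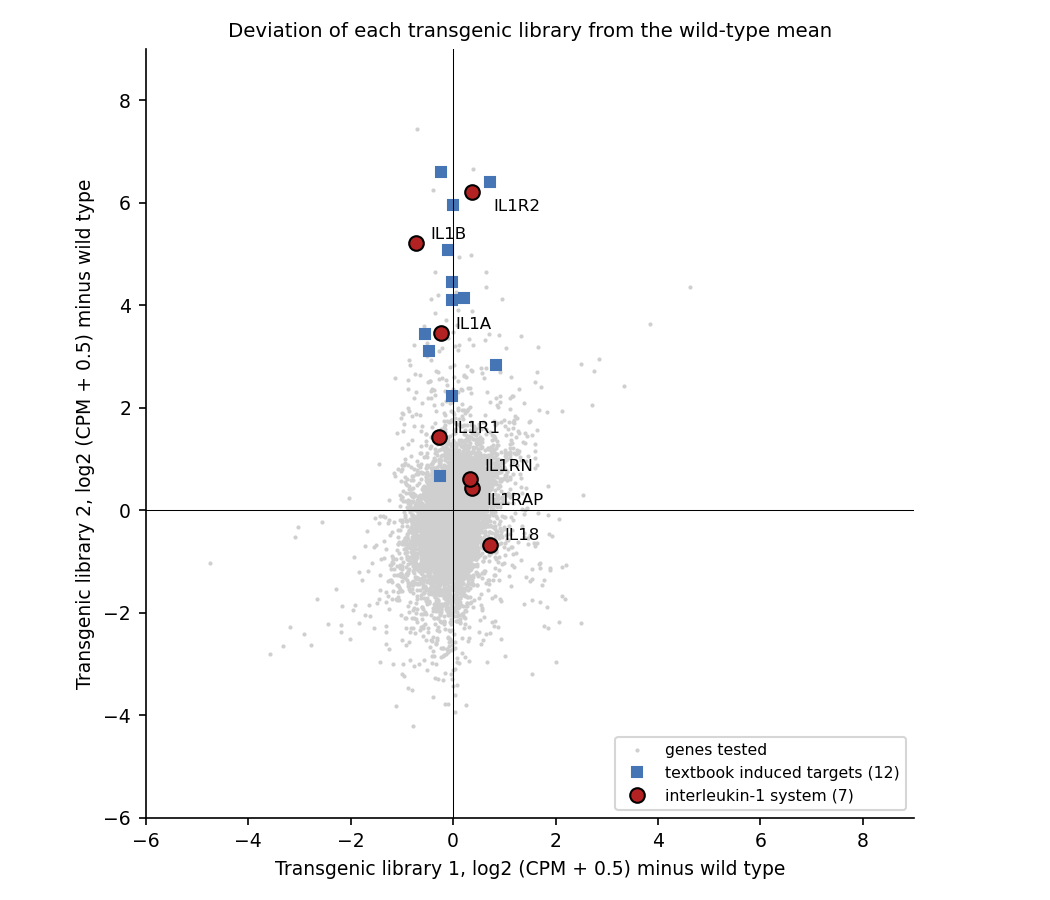
Deviation of transgenic library 1 (x axis) and transgenic library 2 (y axis) from the wild-type mean, in log2 (CPM + 0.5), for the genes tested (grey), the 12 textbook target genes of interleukin-1 (squares) and the 7 members (circles). IL1R2, IL1B and IL1A lie at 6.21, 5.22 and 3.47 on the y axis and at 0.37, -0.73 and -0.24 on the x axis.

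Beyond the members, 58 other genes of the pathway were listed by role from textbook knowledge, and 57 were in the table. The filter kept 38, of which 27 were higher and 11 lower in sign in transgenic cortex. Their median log2 fold change was 0.32, beside -0.0022 over all genes. None passed edgeR's adjusted test (0% of all genes), and DESeq2 (0.293% of all genes) and limma-voom (0%) each called 0. In edgeR, 7 had an unadjusted p under 0.05 (5.62% of all genes), ICAM1 and CXCL8 among them. ICAM1 passed the filter only through the transgenic libraries. CXCL8, with 11, 5, 8 and 335 counts, passed it only with transgenic library 2. Both are high there, so they carry no weight in these counts. Without transgenic library 2 the signs were 16 higher and 25 lower, with a median of -0.017, and 0 were called. Without transgenic library 1, 21 of 46 were called, 19 as higher and 2 as lower, beside 9.92% of all genes. Of these, IL6, CCL2, CXCL1, CXCL2, LCN2 and CSF3 were removed by the filter on all libraries. They and ICAM1, with 9 and 7 counts in wild type, passed the filter in that fit only through transgenic library 2. Their calls carry no weight. With these genes included, the signs in that fit were 32 higher and 14 lower, with a median log2 fold change of 0.54. It holds 1 transgenic library, so it describes that library and not the genotype.

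The genes that interleukin-1 is known to induce stood highest in transgenic library 2. Of 12 such targets, 11 exceeded 4-fold over the higher wild-type library in transgenic library 2 (1.2% of all genes) and 0 did in transgenic library 1 (0.119% of all genes). IL6, CCL2, CXCL2, LCN2 and CSF3 reached 10 counts in total only through transgenic library 2, so they carry no weight beside that share. The list of targets was drawn up with earlier results of these data known. Many other inflammatory signals, TNF among them, induce the same genes. ICAM1, an adhesion receptor for leukocytes, was at 0.70 and 0.51 CPM in wild type, 1.32 in transgenic library 1 and 93.3 in transgenic library 2. SELE, the endothelial selectin, was at 2.63, 1.54, 2.06 and 56.0 CPM in the same order. VCAM1, a further endothelial adhesion molecule, was at 1.16, 3.44, 4.48 and 19.4 CPM. For ICAM1 and VCAM1 both transgenic libraries lay above both wild-type libraries (19.5% of genes kept), and for SELE the groups overlapped. ICAM1 passed the filter only through the transgenic libraries, so it carries no weight beside that share. The adjusted p of ICAM1, SELE and VCAM1 was 0.79 in edgeR's test.

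Other targets, chosen for mention after their values were seen, were nearly silent outside transgenic library 2. The chemokine gene CCL2 had 2 and 5 counts in wild type, 2 in transgenic library 1 and 1322 in transgenic library 2. IL6, the cytokine of the acute phase response, had 0, 1, 0 and 320 counts, and CSF3, the granulocyte growth factor, had 0, 0, 0 and 554. PTGS2, which encodes the cyclooxygenase of inflammation and is also expressed by cortical neurons, was the target under 4-fold, at 4.57 and 6.80 CPM in wild type against 4.70 and 9.41 CPM in the transgenic libraries.

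Among the genes of the NF-κB steps, 3 exceeded 4-fold over the higher wild-type library in transgenic library 2 (1.2% of all genes). In transgenic library 1, 0 did (0.119% of all genes). At 2-fold there were 4 in transgenic library 2 (4.14% of all genes), NFKB1 included, at 18.5, 19.4, 17.3 and 42.8 CPM. All 8 genes of the NF-κB steps were higher in sign over both transgenic libraries, their median log2 fold change was 0.51, and edgeR called 0. TNFAIP3 and NFKBIA, inhibitors that NF-κB itself induces, and NFKBIZ deviated most in transgenic library 2. TNFAIP3 was at 3.64 and 2.49 CPM in wild type, 3.23 in transgenic library 1 and 43.3 in transgenic library 2. NFKBIZ was at 1.32, 1.54, 1.03 and 19.6 CPM and NFKBIA at 31.1, 20.04, 19.0 and 130.02 CPM. In transgenic library 1 these 3 genes were within or under the wild-type range. CHUK and IKBKG, subunits of the kinase that activates NF-κB, had log2 fold changes of 0.0072 ± 0.16 and 0.00061 ± 0.23 (SE, n = 2 per group).

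**Figure D4:**
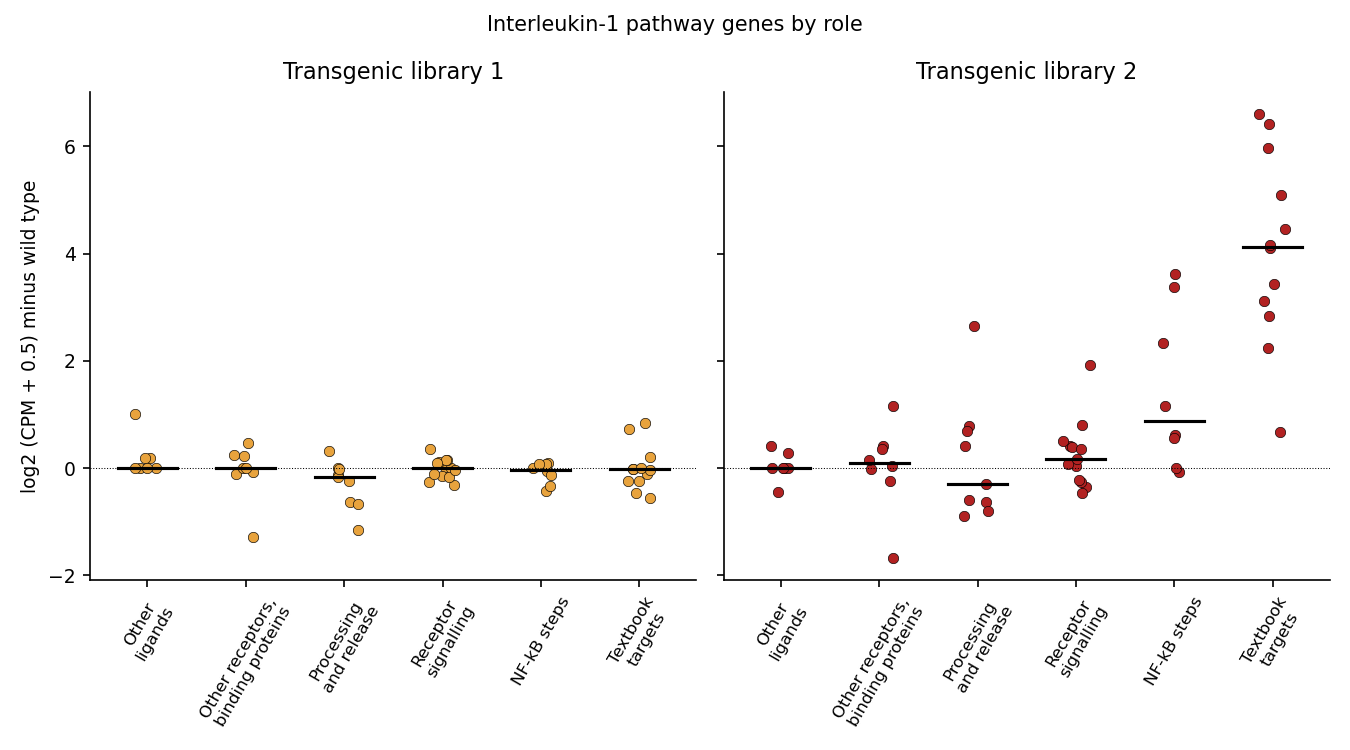
Deviation from the wild-type mean, in log2 (CPM + 0.5), of each pathway gene in the table, grouped by role, for transgenic library 1 (left) and transgenic library 2 (right). Horizontal lines are medians over the genes of a role. The 12 textbook targets span -0.55 to 0.83 in transgenic library 1 and 0.68 to 6.60 in transgenic library 2.

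Genes that carry the signal from the receptor deviated by -0.31 to 0.35 in transgenic library 1 and by -0.46 to 1.93 in transgenic library 2, in log2 (CPM + 0.5). Of 13, 8 were higher and 5 lower in sign. Their median log2 fold change was 0.12, and edgeR called 0. IRAK2, a kinase of the receptor complex, was at 8.28 and 13.4 CPM in wild type, 10.9 in transgenic library 1 and 42.6 in transgenic library 2. IRAK1, a kinase of the same family, was at 75.4 and 69.3 CPM in wild type against 65.2 and 56.6 CPM in transgenic cortex. PELI1, a ubiquitin ligase that acts on IRAK kinases, was at 30.6 and 32.8 CPM in wild type against 40.6 and 56.1 CPM in transgenic cortex. PELI1 lay above the wild type in both transgenic libraries (19.5% of genes kept) and IRAK1 below it (19.4%), and none of the 3 passed the test (adjusted p = 0.79 in edgeR).

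The machinery that matures IL1B was mixed. NLRP3, the sensor of the inflammasome, was at 3.79 and 4.10 CPM in wild type, 2.35 in transgenic library 1 and 27.3 in transgenic library 2. PYCARD, the adaptor that links the sensor to caspase-1, was at 2.01 and 1.17 CPM in wild type against 0.81 and 0.89 CPM in transgenic cortex. NEK7, a kinase that NLRP3 needs, was at 25.8 and 24.1 CPM in wild type against 22.3 and 14.1 CPM in transgenic cortex. CASP1 itself, named after its values were seen, had 7 and 14 counts in wild type and 1 and 6 in transgenic cortex. PYCARD, NEK7 and CASP1 thus lay below the wild type in both transgenic libraries (19.4% of all genes kept by the filter, which CASP1 did not pass), while NLRP3 was high in transgenic library 2 alone. The 6 genes of this role that were tested had a median log2 fold change of -0.41, and edgeR called 0.

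Among the other receptors and binding proteins, SIGIRR had the smallest p. It encodes a receptor of the same family that dampens interleukin-1 and Toll-like receptor signalling. It had 60 and 68 counts in wild type and 23 and 21 in transgenic cortex, or 4.64 and 4.97 CPM against 1.69 and 1.16 CPM. Both transgenic libraries were low and the groups did not overlap (19.4% of genes kept). The log2 fold change was -1.76 ± 0.36 (SE, n = 2 per group), with a p of 0.0040 unadjusted and 0.79 adjusted in edgeR and an adjusted p of 0.38 in DESeq2. Leaving out transgenic library 2 gave -1.51, and leaving out transgenic library 1 gave -2.04.

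IL18BP, the soluble protein that neutralises IL18, was at 10.7 and 8.12 CPM in wild type, 9.41 in transgenic library 1 and 21.7 in transgenic library 2, the library with no IL18 count. IL1RAPL1, a relative of IL1RAP that organises synapses, was at 9.05 and 10.2 CPM in wild type against 11.3 and 13.01 CPM in transgenic cortex. The other ligands of the family were barely detected: of 7, only IL33 reached 10 counts in total, with 3 and 6 counts in wild type, 16 in transgenic library 1 and 2 in transgenic library 2. IL33, an alarmin stored in cell nuclei and named here after its values were seen, and IL18 shared the order of the transgenic libraries.

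Genes with the most similar profile over the 4 libraries were found by the distance between deviations of log2 CPM from the 4-library mean, among 13018 genes with a symbol and a mean count of at least 20. Closest to IL1B were GPR84, a receptor for medium-chain fatty acids on myeloid cells (distance 0.89), the interferon regulatory factor gene IRF1 (1.31) and CD14, the co-receptor for lipopolysaccharide (1.51). GPR84 was at 1.01 and 1.32 CPM in wild type, 0.81 in transgenic library 1 and 41.3 in transgenic library 2. Closest to IL1R1 were COL4A1, a basement membrane collagen (0.088), PPP1R15A (0.12) and TRIM56 (0.13). Closest to IL1RAP were JAZF1 (0.024), PLD6 (0.041) and ZSWIM8 (0.043). With 4 libraries such likeness is a description only.

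Markers of the cells that could carry these transcripts differed between the libraries as well. The 10 microglial markers summed to 213 and 283 CPM in wild type, 155 in transgenic library 1 and 95.9 in transgenic library 2. Of the 10, 0 lay above both wild-type libraries in either transgenic library. No share of all genes was computed for lying above both wild-type libraries in 1 transgenic library. Such counts over a marker list are a description only, here and below. CX3CR1 was at 37.5, 68.5, 40.3 and 3.77 CPM and P2RY12 at 31.9, 48.0, 39.8 and 18.8 CPM. TMEM119 had 112, 206, 91 and 3 counts. The complement genes C1QA, at 34.6, 27.9, 7.86 and 16.4 CPM, and C1QB, at 20.4, 12.9, 2.43 and 14.1 CPM, were lowest in transgenic library 1, as were AIF1 (5.66 CPM, against 7.92 in transgenic library 2) and ITGAM (2.35 against 3.43 CPM). The library with the most IL1B thus had the lowest sum over the list, but not the lowest level of each marker.

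Of 10 neutrophil markers 9 were in the table, and they summed to 8.36 and 11.4 CPM in wild type, 7.13 in transgenic library 1 and 261 in transgenic library 2. That sum was made mostly of S100A9, at 205 CPM in transgenic library 2, and S100A8, at 32.4 CPM. These 2 and S100A12 were the 3 of 9 above 4-fold (1.2% of genes with at least 10 counts in total). S100A8 reached 10 counts in total only through transgenic library 2, so it carries no weight beside that share. In all, 6 of the 9 lay above both wild-type libraries in transgenic library 2, against 1 in transgenic library 1. The share of all genes was not computed for either count. FPR2 was among the 6, at 1.55 and 1.24 CPM in wild type, 0.73 in transgenic library 1 and 4.04 in transgenic library 2, as was MMP9, with 4, 3, 2 and 17 counts. MPO, with 5, 5, 7 and 7 counts, was also among them, by a margin under 1 count. CSF3R had 54, 119, 70 and 79 counts, CXCR2 had 3, 4, 3 and 1, and ELANE had 0, 0, 0 and 1. Neutrophils are a known source of IL1R2.

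The 8 monocyte and perivascular macrophage markers summed to 32.7 and 37.6 CPM in wild type, 43.4 in transgenic library 1 and 156 in transgenic library 2. CD14 made up most of the last sum, at 139 CPM. It was the 1 of 8 above 4-fold there (1.2% of genes with at least 10 counts in total). With CD14, 4 of the 8 lay above both wild-type libraries in transgenic library 2: CD163 was at 0.85, 0.66, 0.59 and 1.16 CPM, MRC1 at 0.46, 1.32, 0.88 and 1.38 CPM, and F13A1 at 3.87, 4.53, 4.04 and 6.20 CPM. In transgenic library 1, 3 of the 8 did (LYVE1, VCAN and CCR2). The share of all genes was not computed for these counts of 4 and 3. LYVE1 was at 0.46 and 3.07 CPM in wild type, 3.53 in transgenic library 1 and 0.44 in transgenic library 2, its lowest level. VCAN was at 21.0 and 18.9 CPM in wild type, 28.6 in transgenic library 1 and 8.03 in transgenic library 2. FCN1 had 0, 0, 0 and 1 counts and CCR2 had 1, 2, 5 and 0. The part of microglial, neutrophil and monocyte markers in the levels of IL1A, IL1B and IL1R2 was not tested.

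The 8 endothelial markers summed to 286 and 206 CPM in wild type, 171 in transgenic library 1 and 147 in transgenic library 2, where IL1R1 and SELE were highest. Of the 8, 2 lay above both wild-type libraries in transgenic library 2 and 0 in transgenic library 1 (share of all genes not computed). Those 2 were CDH5, at 11.9 and 13.2 CPM in wild type, 9.48 in transgenic library 1 and 21.8 in transgenic library 2, and ERG, at 7.74, 6.51, 4.78 and 15.3 CPM. FLT1 was at 95.8, 62.4, 54.9 and 19.0 CPM and PECAM1 at 43.9, 32.2, 29.2 and 31.6 CPM. Sums for T and B cells stayed between 4.12 and 7.64 CPM in all 4 libraries. Of the red blood cell list only ALAS2 was in the table, at 14.5 and 1.02 CPM in wild type against 0.51 and 6.09 CPM in transgenic cortex. Fibroblast and mural cell markers summed to 222 and 290.05 CPM in wild type against 333 and 238 CPM in transgenic cortex. Astrocyte markers summed to 2606 and 2177 CPM in wild type against 2593 and 1204 CPM in transgenic cortex, oligodendrocyte markers to 2790 and 2210.1 CPM against 2745 and 922 CPM, and neuronal markers to 8924 and 9476 CPM against 8925 and 10724 CPM.

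**Figure D5:**
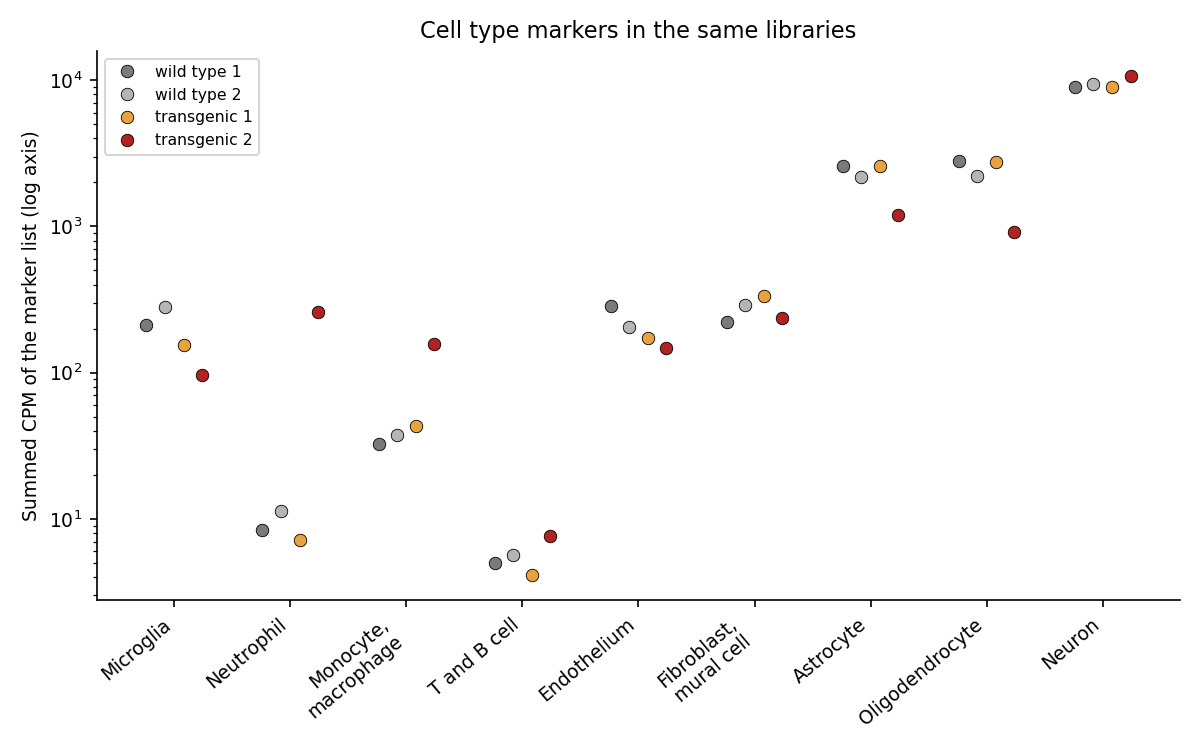
Summed level of each marker list (CPM, log axis) in the 4 libraries, the red blood cell list left out because 1 gene matched. Neutrophil and monocyte lists are highest in transgenic library 2 (261 and 156 CPM), and microglial, astrocyte and oligodendrocyte lists are lowest there.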

How the data were processed

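RNA of frontal cortex was sequenced in 4 libraries. What the authors deposited is a table of raw counts of reads, 1 row per symbol. kallisto 0.46.2, STAR 2.5.3a and featureCounts 1.5.2 appear in the submitters' processing notes with no role attached. The build, the annotation and the use of strand are not stated there, so reads of antisense or overlapping genes may be mixed, and no coordinates or sequences are printed.

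Analysis used R 4.3.3. Genes were kept with filterByExpr (16385) and scaled by TMM. Groups were compared with edgeR 4.0.16 (quasi-likelihood test, genotype alone in the model, 2 residual degrees of freedom), with Benjamini-Hochberg adjustment across every gene kept. CPM use TMM-scaled library sizes, and 3 counts equal 0.17 to 0.23 CPM. An exact permutation test of 2 against 2 libraries could not pass the threshold and was not run. Alternatives included DESeq2 1.42.0 and limma-voom (limma 3.58.1). The steps were tested on simulated data.

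The members and lists were chosen with earlier results of these data known. Named were all members, the 3 pathway genes per role with the smallest p, the 3 genes nearest each member tested and the 2 most abundant genes per marker list discussed; other genes were chosen after their values were seen. CASP4, FPR1, HBB, HBA1 and HBA2 did not match the table by symbol.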

Additional observations from a re-analysis of the deposited data

How the results depend on the processing

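Scaling by RLE size factors or by library totals, a minimum mean count of 50, limma-voom and a test against a fold of 1.2 gave 0 calls among all genes, members and pathway genes, as the main analysis did. With no filter on low counts 5 genes were called and with DESeq2 48, none of them a member or a pathway gene. Leaving out each library in turn gave 0 to 1710 calls over all genes, 0 to 4 among the members and 0 to 21 among the pathway genes, the highest each time without transgenic library 1; without transgenic library 2, 3 genes were called. Where a group was left with 1 library, that library was assumed to vary like the other group. Without transgenic library 2 the log2 fold changes of IL1B and IL1R1 turned to -1.33 and -0.29. Without transgenic library 1 they were 5.80 and 1.49, with transgenic library 2 alone set against the wild type. The IL1B value was 2.58 in limma-voom and 3.36 with the replicate number as a block, against 4.82. The replicate block gave 0 calls over all genes, members and pathway genes. The numbers share no stated animal or batch, and deviations of same-numbered libraries correlated at -0.14 over genes. A block with the numbers crossed, added after seeing the data, also gave 0 calls. IL1A, IL1R2, IL1RN and IL18 were removed by the low-count filter, and differences under 3 counts per library were not detectable.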
